A study of Mus musculus with 43 samples.

Results

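Potassium channel genes were followed here across nuclear RNA and open chromatin of cortical neurons from enriched and standard-housed mice. Members were all genes whose mouse symbol begins with Kcn, followed by letters and a final number. That symbol rule found 92 of the 53379 gene IDs in each RNA table, and a gene was kept in a table where at least 6 libraries reached 1 CPM (counts per M, or mega, of the library's total). This left 70 genes in females and 68 in males, 68 of them in both. Kcnj5 and Kcnk6 were kept in females alone. The 22 genes that were not kept reached at most 1.27 CPM in any female library and 1.22 CPM in any male library, and they included the KCNE-type regulators Kcne1 to Kcne4 and the intermediate-conductance calcium-activated channel gene Kcnn4. Kcnj5 passed through its EE libraries alone, since no SH library reached the minimum. Regions of open chromatin were members where they lay inside the span of a kept gene or within 1 kb of its start. They numbered 1435 of 165184 in the female ATAC table and 1756 of 192919 in the male one.

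The mice were wildtype Swiss Webster, weaned at postnatal day 25 and 2 months old at collection. The EE group lived in environmental enrichment, with larger cages, a running wheel, a tube, added nesting material and toys that changed every few days, and the SH group in standard housing. Frontal cortex nuclei were fixed with paraformaldehyde, and those positive for NeuN, a nuclear protein of most neurons, were sorted. RNA was measured in 6 EE and 6 SH libraries of each sex, and ATAC-seq, which counts transposase insertions into accessible DNA, in 3 EE and 3 SH female and 6 EE and 7 SH male libraries. A sorted sample mixes all neuron classes, so fewer cells of a type and less RNA per cell cannot be told apart. Whether each replicate came from its own animal is not stated in the labels, so p-values reflect the spread between these samples, which may be technical. The library prefixes in the labels differ between the sexes, and an effect of sex cannot be told apart from one of whatever those prefixes stand for.

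Potassium channels let potassium leave or enter the cell along its gradient and so set the resting potential, the shape of the action potential and the firing pattern of a neuron. Voltage-gated Kv subunits repolarize the membrane, Kv7 subunits carry the slow M current, EAG, ERG and ELK channels are their distant relatives, and calcium- or sodium-activated channels open when those ions accumulate. Inward rectifiers and K2P leak channels act near rest, while auxiliary subunits such as the KChIP proteins tune gating and transport. Activity is known to regulate several of these genes in cortical neurons.

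Total counts ran from 10.6 M to 15.4 M per female RNA library, from 10.4 to 14.6 M per male RNA library, from 19.1 to 26.3 M per female ATAC library and from 27.7 to 73.8 M per male ATAC library. The neuronal markers Rbfox3 (the gene of NeuN), Snap25 and Syt1 summed to between 6417 and 7077 CPM in female EE and between 6478 and 7156 CPM in female SH libraries, and to between 6164 and 6974 CPM in male EE and between 5800 and 6416 CPM in male SH libraries. Glial markers were also present. Female SH replicate 2 held the highest sums, 1519 CPM for 8 astrocyte markers against at most 1239 CPM in any female EE library, and 348 CPM for 6 oligodendrocyte markers against at most 242 CPM.

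The channel RNAs covered a wide range of levels, given here per kb of gene span because reads fell over introns and exons. In SH females the highest were Kcnip4, which encodes the Kv4 auxiliary protein KChIP4, at 8.66 ± 0.735 CPM per kb, and Kcnj9, a subunit of G protein-gated inward rectifiers, at 8.51 ± 0.961 CPM per kb (SD, n = 6). The same pair led in SH males, with 9.36 ± 0.554 CPM per kb for Kcnip4 and 9.20 ± 0.510 CPM per kb for Kcnj9 (SD, n = 6). These levels did not differ from each other beyond their spread in either sex. Kcnj9 stood clear of the third gene in both sexes, Kcnq3 in females (5.43 ± 0.174 CPM per kb) and the axonal Kv1 gene Kcna2 in males (5.92 ± 0.414 CPM per kb). Among the 12 highest genes, the ranges over SH libraries overlapped for every other pair of neighbours in females, and in males for all but Kcna2 over Kcnh7 (4.66 ± 0.253 CPM per kb).

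Other genes among the 10 highest of either sex came from several classes. In SH females they included the ERG channel gene Kcnh7 (5.29 CPM per kb), Kcna2 (4.77), the M-current gene Kcnq5 (4.46), the large-conductance calcium-activated channel gene Kcnma1 (4.10), the A-type gene Kcnd2 (3.88) and Kcna1 (3.73 CPM per kb). In SH males they included Kcnq3 (4.37 CPM per kb), Kcnq5 (4.34), the ELK gene Kcnh3 (3.88), Kcnma1 (3.85) and the silent modifier Kcnv1 (3.24 CPM per kb). The Kv3 class was led by Kcnc1 (3.62 CPM per kb in SH females and 2.79 in SH males) and the K2P class by Kcnk9 (1.89 CPM per kb in SH females and 1.95 in SH males). Across the 68 shared genes the order of SH levels per kb was close between the sexes (Spearman rho 0.975, a description across genes that share libraries).

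**Figure D1:**
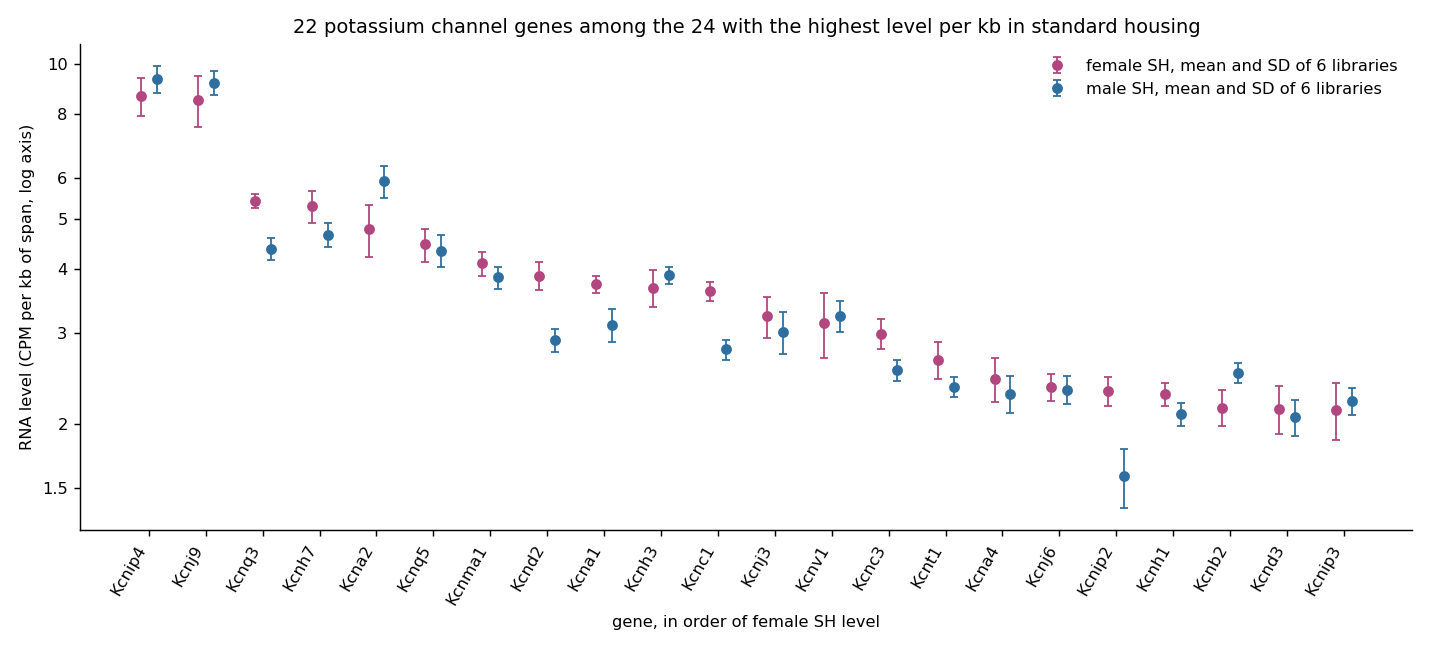
Mean RNA level per kb of gene span (CPM per kb, log axis) of 22 genes among the 24 with the highest level in female SH libraries, with SD over 6 libraries, for females and males. Kcnip4 and Kcnj9 lie highest in both sexes, at 8.66 and 8.51 CPM per kb in females and 9.36 and 9.20 CPM per kb in males.

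In females, the smallest p belonged to the inward rectifier gene Kcnj4, and none of the 70 genes passed the adjusted threshold. Kcnj4 and Kcnj2, which encode the strong inward rectifiers Kir2.3 and Kir2.1, had higher RNA in EE, by 0.38 and 0.41 on the log2 scale. Lower levels were seen for the calcium-activated channel gene Kcnn2, the sodium-activated channel gene Kcnt2, the leak channel gene Kcnk4 and the ATP-sensitive channel gene Kcnj11. With edgeR's quasi-likelihood test, 0 of 70 genes had an adjusted p under 0.05, against 0% of all 14587 genes tested. DESeq2 called 1 (Kcnj4), against 0.802% of all genes, and limma-voom called 0. DESeq2 gave no adjusted p to 3960 of the 14587 genes, which count in that share as not called. At an unadjusted p under 0.05 there were 16 genes (22.9%, against 8.67% of all genes), 4 higher in EE and 12 lower in EE, against 4.53% and 4.14% of all genes. Over the 70 genes, 28 lay above 0 (50.6% of all genes did) and 42 below, with a median of -0.01 against 0.00 for all genes tested. Kcnj5, which was kept through its EE libraries alone, is counted in the 16, the 4 and the 28. Scaling by total counts alone put 36 of the 70 above 0. Leaving out 1 library turned the 16 genes into 10 (without EE replicate 3) to 22 (without SH replicate 2).

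The members were more abundant and longer than the genes they are set against. The median level of the kept genes was 49.4 CPM in females and 40.9 CPM in males, against 11.7 and 11.2 CPM for all genes tested, and their median span was 52.3 kb in females and 53.5 kb in males, against 29.2 and 29.6 kb. Among all genes, the share with an unadjusted p under 0.05 went up with span, and was 7.27% below 20 kb and 18.1% at 300 kb or more in females and 5.78% and 21.9% in males. The part of level and span in the members' counts was not tested.

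Kcnj4 showed the smallest p of the female members. Its RNA had a lowest, median and highest level of 32.8, 34.5 and 40.2 CPM in EE females, against 23.5, 25.9 and 33.8 CPM in SH females. All 6 EE libraries lay above the SH median, and the groups overlapped through SH replicate 6 alone. The means were 35.1 ± 2.67 CPM in EE and 26.8 ± 3.68 CPM in SH (SD, n = 6 each), a log2 fold change of 0.38 ± 0.08 (SE; adjusted p = 0.118, edgeR). Adjusted p was 0.0104 in DESeq2, 0.0429 without SH replicate 2 and 0.0408 without SH replicate 6. In males Kcnj4 had 25.1, 26.5 and 27.1 CPM in EE and 23.7, 26.2 and 27.6 CPM in SH libraries, with a log2 fold change of 0.00 ± 0.06.

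Kcnj2 encodes Kir2.1, which with Kir2.3 stabilizes the resting potential. In EE females it had 6.88, 9.85 and 10.9 CPM (lowest, median and highest), against 5.65, 7.05 and 9.15 CPM in SH females, and 5 of 6 EE libraries lay above the SH median. The means were 9.50 ± 1.49 CPM in EE and 7.12 ± 1.22 CPM in SH (SD, n = 6 each), with a log2 fold change of 0.41 ± 0.13 (adjusted p = 0.279). In males the log2 fold change was -0.12 ± 0.09 (adjusted p = 0.782). Kcnj5, which encodes the GIRK4 subunit, had between 1.00 and 1.79 CPM in EE females and between 0.286 and 0.840 CPM in SH females. It was the only member whose female groups did not overlap (0.528% of all genes had none), but it entered through its EE libraries, and its log2 value of 0.96 ± 0.31 (adjusted p = 0.279) is given as a description.

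The bases upstream of these Kir2 genes are shown because their RNA had the smallest p values of the female inward rectifiers, and because open chromatin was measured at both starts. Sequences are from RefSeq (GRCm38.p6, the assembly of mm10), the 250 bases before each start, written 5′ to 3′ on the gene's strand. Capitals mark matches, on either strand, to the GC box GGGCGG or to the E-box CAGCTG. Kcnj4 lies at chr15:79505242-79505491 on the minus strand, with 3 GC boxes, a pair of them adjoining, and 77.2% G and C. Kcnj2 lies at chr11:111065914-111066163 on the plus strand, with 2 GC boxes, 1 E-box and 65.6% G and C.
Kcnj4: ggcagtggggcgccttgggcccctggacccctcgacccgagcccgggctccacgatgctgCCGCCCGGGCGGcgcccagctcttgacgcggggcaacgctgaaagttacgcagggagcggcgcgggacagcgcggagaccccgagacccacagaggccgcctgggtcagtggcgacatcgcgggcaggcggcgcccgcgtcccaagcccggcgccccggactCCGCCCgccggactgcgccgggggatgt
Kcnj2: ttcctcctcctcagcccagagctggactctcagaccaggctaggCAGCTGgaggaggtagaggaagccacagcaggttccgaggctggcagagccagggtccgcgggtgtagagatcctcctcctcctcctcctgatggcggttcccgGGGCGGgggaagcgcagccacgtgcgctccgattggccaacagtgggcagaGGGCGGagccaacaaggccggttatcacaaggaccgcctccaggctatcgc

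The 250 bases before the start were read for 71 RefSeq promoters of 48 of the 70 members. The GC box was in 49.3% of them, against 32.7% of all 32851 promoters, and the E-box in 23.9%, against 4271 of those 32851. The AP-1 site TGANTCA was in 3 promoters (4.23%), against 6.75% of all, and the cAMP response element TGACGTCA in 0 of 71, against 1.55% of all. These are matches of letters in a fixed window, on both strands. At the Kcnj2 start, the female ATAC region held 34.9 ± 3.49 CPM in EE and 32.4 ± 2.92 CPM in SH (SD, n = 3 each; log2 0.11 ± 0.11). At Kcnj4 a region just inside the start held 7.71 ± 1.03 CPM in EE and 8.75 ± 1.02 CPM in SH (log2 -0.18 ± 0.16), and a second one upstream held 5.91 ± 0.394 CPM in EE and 5.87 ± 0.538 CPM in SH (log2 0.01 ± 0.18). The EE and SH ranges overlapped at all 3 regions.

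**Figure D2:**
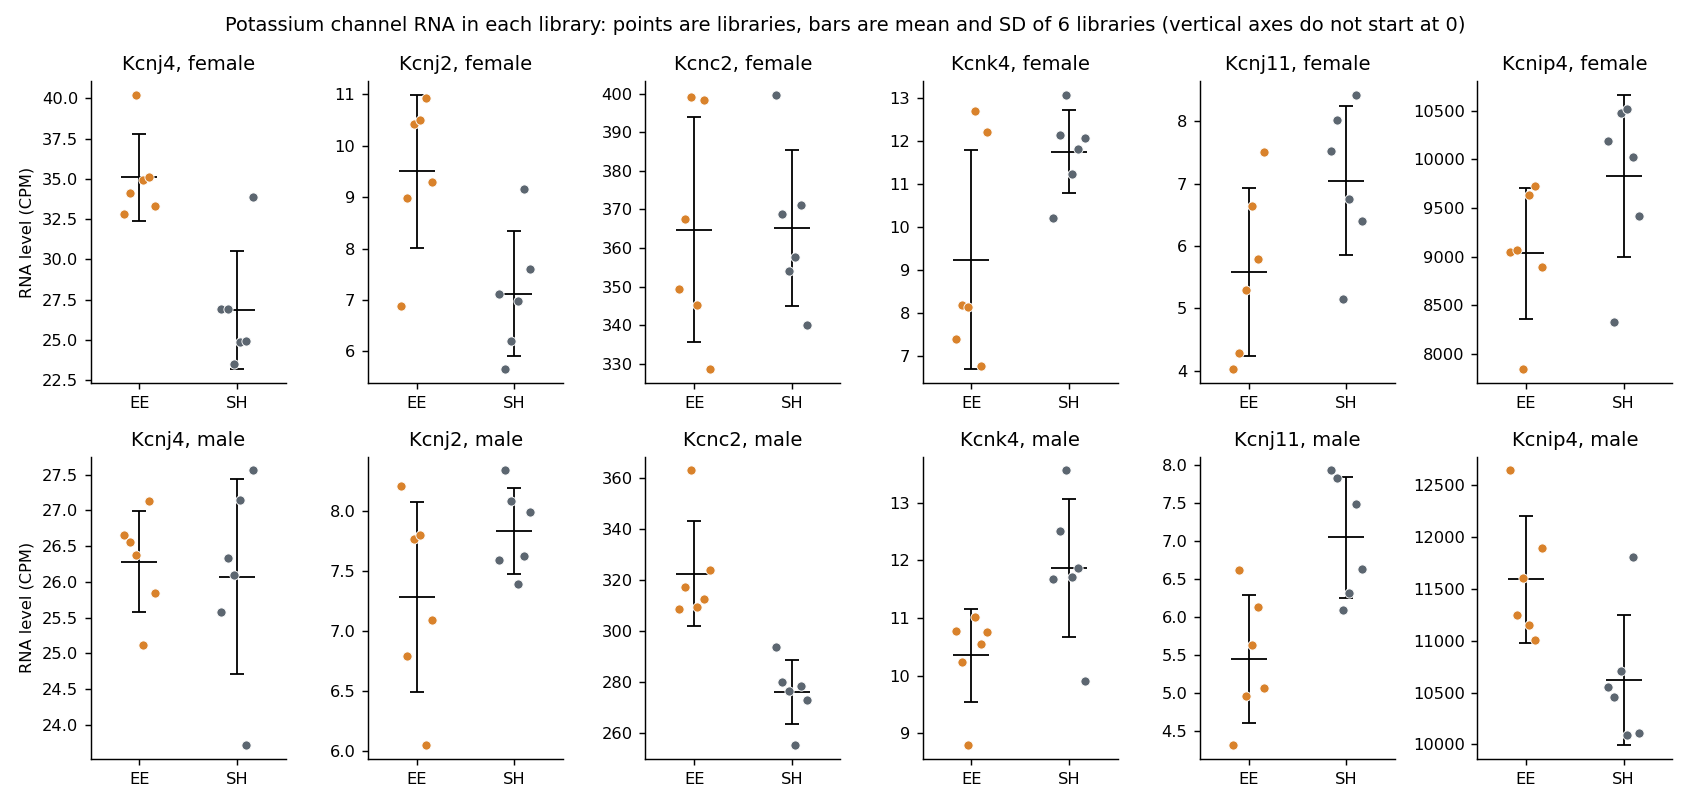
RNA level (CPM) of 6 potassium channel genes in every library, EE left of SH, with females in the upper row and males in the lower row; points are libraries and bars are mean and SD of 6 libraries, on axes that do not start at 0. Kcnj4 and Kcnj2 lie higher in EE in females, Kcnc2 in males, Kcnk4 and Kcnj11 lie lower in EE in both sexes, and Kcnip4 lies lower in EE females and higher in EE males.

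The other female inward rectifiers lay below 0 or close to it. Kcnj6, the GIRK2 subunit of G protein-gated channels, had 478, 559 and 564 CPM in EE, against 515, 599 and 608 CPM in SH (log2 -0.13 ± 0.05, adjusted p = 0.473). Its SH replicate 2 lay at 515 CPM, below the other SH libraries. Kcnj11, the pore of the ATP-sensitive channel, had 5.59 ± 1.35 CPM in EE and 7.04 ± 1.196 CPM in SH (SD, n = 6 each; log2 -0.34 ± 0.16, adjusted p = 0.559). The class of 10 kept genes had 4 above 0, with Kcnj5 counted among them, and 6 below.

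Calcium- and sodium-activated channels had 4 of 7 genes above 0 in females, and the pair with an unadjusted p under 0.05 was lower in EE. Kcnn2, which encodes the small-conductance SK2 subunit, had 190, 210 and 221 CPM in EE females, against 204, 250 and 298 CPM in SH females (log2 -0.25 ± 0.08, adjusted p = 0.332). Kcnt2, which encodes the sodium-activated Slick subunit, had 408, 442 and 487 CPM in EE, against 448, 504 and 530 CPM in SH (log2 -0.16 ± 0.05, adjusted p = 0.343). For both genes the EE and SH libraries overlapped.

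K2P leak channels had 4 of 9 female genes above 0. Kcnk4, the mechanically gated leak channel TRAAK, had 6.78, 8.17 and 12.7 CPM in EE, against 10.2, 11.9 and 13.1 CPM in SH (log2 -0.35 ± 0.14, adjusted p = 0.483). A pair of EE libraries reached the SH range. Kcnk13 was lower in EE at a log2 of -0.27 ± 0.11 (adjusted p = 0.453), and Kcnk1, which encodes TWIK-1, was higher at 0.15 ± 0.06 (adjusted p = 0.484), with 53.8 to 62.2 CPM in EE and 44.1 to 58.2 CPM in SH.

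Among EAG, ERG and ELK channels 2 of 8 female genes lay above 0, and 3 were lower in EE at an unadjusted p under 0.05. The ELK gene Kcnh4 had 25.2, 31.3 and 35.9 CPM in EE, against 30.9, 36.2 and 42.7 CPM in SH (log2 -0.25 ± 0.09, adjusted p = 0.392). Kcnh5 was at -0.12 ± 0.06 (adjusted p = 0.558) and Kcnh7 at -0.12 ± 0.05 (adjusted p = 0.559). Silent Kv modifiers, which act only together with Kv2 subunits, had 2 of 8 genes above 0. Of the 6 below 0, those with an unadjusted p under 0.05 were Kcng3, with 7.84, 10.9 and 12.1 CPM in EE, against 11.3, 12.95 and 15.2 CPM in SH (log2 -0.33 ± 0.12, adjusted p = 0.360), and Kcnv1 at -0.25 ± 0.10 (adjusted p = 0.464).

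The other voltage-gated classes held no female gene with an unadjusted p under 0.05. In females 2 of 5 Kv1 genes, 2 of 4 Kv3 genes, 2 of 3 Kv4 genes and 1 of 5 Kv7 genes lay above 0. Of 9 auxiliary genes 5 lay above 0. Kcnip4, the member with the highest CPM when span is not divided out, had 7840, 9059 and 9730 CPM in EE. In SH it had 8333, 10112 and 10522 CPM (log2 -0.13 ± 0.06, adjusted p = 0.556). All 6 EE libraries lay below the SH median.

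Most markers of excitatory neurons were lower in EE females. Their summed level was between 2233 and 2498 CPM in EE and between 2375 and 2650 CPM in SH. Only 2 of 9 markers were higher in EE, and several, among them Neurod6, Camk2a and Cux2, were lower in EE at an unadjusted p under 0.05. No marker of the list was at 0 in any library. Of the markers of striatal projection neurons, 6 of 7 were higher in EE females. Rgs9 had 46.8, 120 and 157 CPM in EE (lowest, median and highest), against 23.0, 76.1 and 109 CPM in SH (log2 0.66, adjusted p = 0.666). Drd2 had 9.49, 26.1 and 43.9 CPM in EE, against 4.94, 19.2 and 31.0 CPM in SH (log2 0.52, adjusted p = 0.784). Adora2a was at 0.73 (adjusted p = 0.674) and Isl1 at 1.54 (adjusted p = 0.279), with at most 1.79 CPM in EE and 0.954 CPM in SH, and Isl1 was at 0 in SH replicate 5. Their summed level was 1134 to 1888 CPM in EE and 1257 to 1928 CPM in SH, most of it from Pde10a, which was at -0.23 (adjusted p = 0.608). Tac1, in the list of fast-spiking interneuron markers, was at 1.24 (adjusted p = 0.251). In males 2 of the 5 striatal markers tested were higher in EE. The part of neuron composition in the channel values, those of Kcnj4 and Kcnj2 included, was not tested.

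**Figure D3:**
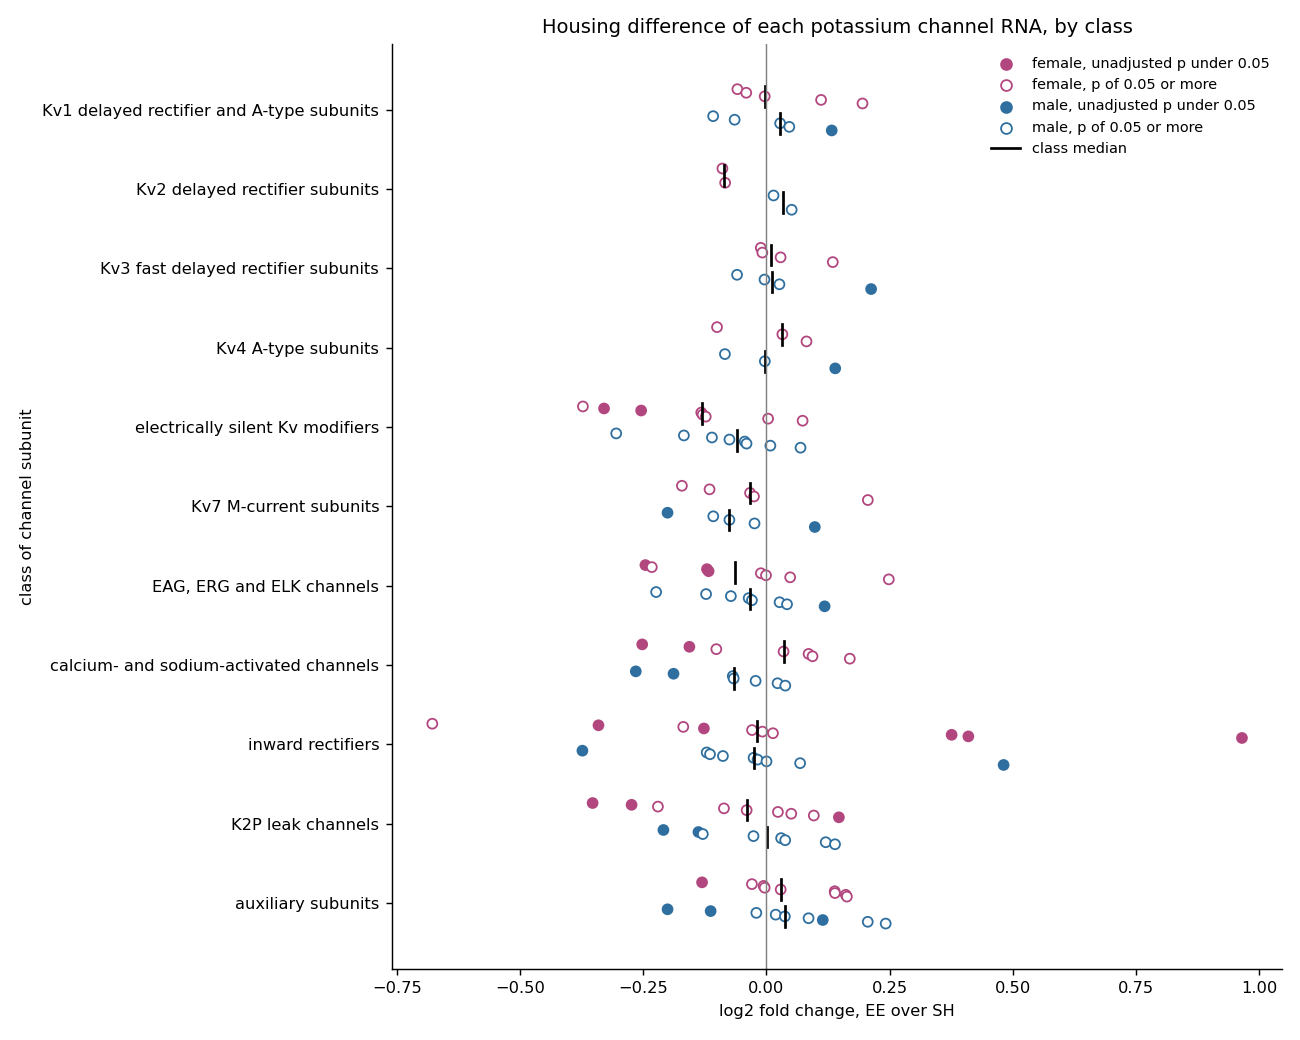
Log2 fold change, EE over SH, of each kept gene by class of channel, females above males within each class; filled points have an unadjusted p under 0.05 in edgeR and the black bars are class medians. In females the filled points at the right are Kcnk1, Kcnj4, Kcnj2 and Kcnj5, and the other 12 lie left of 0; in males 7 lie right of 0 and 8 left of it.

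In males, the smallest p belonged to Kcnc2, which encodes Kv3.2, a fast delayed rectifier of interneurons, and no gene passed the adjusted threshold. The A-type gene Kcnd2, the ERG gene Kcnh7 and Kcnip4 were also higher in EE, by 0.11 to 0.14 on the log2 scale, while Kcnj11, Kcnn3 and Kcnk4 were lower. With edgeR, 0 of 68 genes had an adjusted p under 0.05, against 0.0411% of 14597 genes tested. DESeq2 called 1 (Kcnc2), against 0.418% of all genes, and limma-voom called 0. DESeq2 gave no adjusted p to 11037 of the 14597 genes, so that share is low for the genes it could call. At an unadjusted p under 0.05 there were 15 genes (22.1%, against 8.03% of all genes), 7 higher in EE and 8 lower in EE, against 4.09% and 3.94% of all genes. Over the 68 genes, 29 lay above 0 (47.9% of all genes did) and 39 below, with a median of -0.02 against -0.01 for all genes tested. Scaling by total counts alone put 20 of the 68 above 0. Leaving out 1 library turned the 15 genes into 10 (without EE replicate 6, among others) to 19 (without EE replicate 1).

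Kcnc2 was the only male member whose groups did not overlap, against 0.548% of all genes. Its levels were 308.7, 314.9 and 362.8 CPM in EE (lowest, median and highest), against 255.3, 277.4 and 293.6 CPM in SH. The means were 322 ± 20.5 CPM in EE and 276 ± 12.4 CPM in SH (SD, n = 6 each), a log2 fold change of 0.21 ± 0.05 (adjusted p = 0.118, and 0.00266 in DESeq2). Over the 12 omissions of 1 library, edgeR's adjusted p ran from 0.0517 to 0.262. In females the log2 fold change of Kcnc2 was -0.01 ± 0.05. Male GABAergic interneuron markers summed to between 1002 and 1243 CPM in EE and between 1013 and 1155 CPM in SH, and 10 of 12 were higher in EE, 1 of them (Adarb2) at an unadjusted p under 0.05. Of the markers of fast-spiking interneurons, which use Kv3 channels, 3 of 5 tested were higher in EE, with sums of 180 to 225 CPM in EE and 179 to 213 CPM in SH. No marker of either list was at 0 in any male library. Their part in the Kcnc2 value was not tested.

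The bases before the Kcnc2 start are shown beside those of Kcnk4, the leak channel gene that was lower in EE in both sexes. Kcnc2 lies at chr10:112270871-112271120 on the plus strand and holds 1 E-box and 52.8% G and C. Kcnk4 lies at chr19:6934516-6934765 on the minus strand and holds 1 GC box, 1 E-box and 54.8% G and C. Source, window and capitals are as for the Kir2 genes.
Kcnc2: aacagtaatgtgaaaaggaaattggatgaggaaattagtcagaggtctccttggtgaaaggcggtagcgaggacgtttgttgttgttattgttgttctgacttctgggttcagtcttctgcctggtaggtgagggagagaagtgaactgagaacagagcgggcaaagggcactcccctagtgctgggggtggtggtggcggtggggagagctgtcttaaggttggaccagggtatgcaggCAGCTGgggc
Kcnk4: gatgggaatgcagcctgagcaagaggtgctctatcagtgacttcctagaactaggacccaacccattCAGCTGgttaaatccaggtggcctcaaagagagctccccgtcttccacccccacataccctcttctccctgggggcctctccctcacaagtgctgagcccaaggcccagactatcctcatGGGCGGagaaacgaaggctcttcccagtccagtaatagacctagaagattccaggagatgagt

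At the Kcnc2 start the male ATAC region held 31.9 ± 4.07 CPM in EE (SD, n = 6) and 31.5 ± 3.36 CPM in SH (SD, n = 7), a log2 fold change of 0.03 ± 0.07. The Kcnk4 start region held 18.9 ± 3.01 CPM in EE males and 19.5 ± 2.33 CPM in SH males (log2 -0.05 ± 0.09). In females it held 17.3 ± 1.35 CPM in EE and 19.0 ± 1.24 CPM in SH (log2 -0.14 ± 0.12). At these starts the EE and SH values overlapped.

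Among the other male voltage-gated genes, Kcnd2, which encodes the dendritic A-type subunit Kv4.2, had 1488, 1644 and 1831 CPM in EE, against 1378, 1491 and 1613 CPM in SH (log2 0.14 ± 0.05, adjusted p = 0.403). Kcnh7, an ERG channel, had 2360, 2456 and 2717 CPM in EE, against 2123, 2324 and 2419 CPM in SH (log2 0.12 ± 0.04, adjusted p = 0.453). The ranges overlapped for both genes. The M-current gene Kcnq5 was at 0.10 ± 0.05 (adjusted p = 0.616), the Kv1 gene Kcna6 at 0.13 ± 0.06 (adjusted p = 0.566) and Kcnq1 at -0.20 ± 0.09 (adjusted p = 0.596). In males 3 of 5 Kv1 genes, 2 of 4 Kv3 genes, 1 of 3 Kv4 genes, 2 of 8 silent modifiers, 1 of 5 Kv7 genes and 3 of 8 EAG, ERG and ELK genes lay above 0.

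Male auxiliary genes had 6 of 9 above 0. Kcnip4 had 11011, 11425 and 12644 CPM in EE, against 10088, 10508 and 11804 CPM in SH (log2 0.11 ± 0.04, adjusted p = 0.482), and all 6 EE libraries lay above the SH median. The other KChIP genes with an unadjusted p under 0.05 were lower in EE, Kcnip2 at -0.20 ± 0.08 (adjusted p = 0.528) and Kcnip3 at -0.11 ± 0.05 (adjusted p = 0.571). KChIP proteins bind calcium and set the surface level of Kv4 channels.

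Calcium- and sodium-activated channels had 2 of 7 male genes above 0. The SK3 gene Kcnn3 had 33.5, 38.2 and 42.4 CPM in EE, against 38.7, 42.6 and 47.3 CPM in SH (log2 -0.19 ± 0.06, adjusted p = 0.403), and the SK1 gene Kcnn1 was at -0.27 ± 0.11 (adjusted p = 0.544). Of K2P genes 4 of 8 lay above 0. Kcnk3, which encodes the acid-sensitive leak channel TASK-1, had 36.2, 39.6 and 41.5 CPM in EE, against 40.3, 42.2 and 47.0 CPM in SH (log2 -0.14 ± 0.05, adjusted p = 0.439). Kcnk4 had 8.79, 10.7 and 11.0 CPM in EE, against 9.90, 11.8 and 13.6 CPM in SH (log2 -0.21 ± 0.08, adjusted p = 0.497). The EE and SH libraries overlapped for each of these genes.

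Male inward rectifiers had 3 of 9 genes above 0, with a difference in each direction at an unadjusted p under 0.05. Kcnj11 had 4.31, 5.34 and 6.62 CPM in EE, against 6.09, 7.06 and 7.93 CPM in SH (log2 -0.37 ± 0.12, adjusted p = 0.363), and its groups overlapped slightly. Kcnj10 encodes Kir4.1, the main potassium channel of astrocytes and also found in oligodendrocytes. It had 3.18, 5.82 and 7.75 CPM in EE males, against 2.94, 3.83 and 6.31 CPM in SH males (log2 0.48 ± 0.21, adjusted p = 0.570).

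Astrocyte and oligodendrocyte markers moved with Kcnj10, but in males not with its partner Kcnj16. In males all 8 astrocyte markers were higher in EE, with sums of 903 to 1069 CPM in EE and 825 to 934 CPM in SH. Of these, Slc1a2 and Slc4a4 had an unadjusted p under 0.05. All 6 oligodendrocyte markers were also higher in EE males, 2 of them at an unadjusted p under 0.05. Their sums were 99.5 to 244 CPM in EE and 110 to 144 CPM in SH. The highest EE sum was that of replicate 4 alone, and the next was 170 CPM. In females 2 of 8 astrocyte markers and 0 of 6 oligodendrocyte markers were higher in EE, with an unadjusted p under 0.05 for 4 astrocyte markers. Female SH replicate 2, with the highest glial sums, had 16.03 CPM of Kcnj10 and 5.04 CPM of Kcnj16. Over the 12 male libraries Kcnj10 had a Spearman rho of 0.66 with the astrocyte sum and 0.58 with the oligodendrocyte sum. Male Kcnj16 had -0.33 and -0.15, and its log2 fold change was -0.11. No marker of these lists was at 0 in any library. Their part in the Kcnj10 value was not tested.

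The housing differences of the sexes were compared across the 68 shared genes. The same direction was seen for 36 (52.9%, against 47.4% of the 14067 genes tested in both tables), and the log2 changes had a Pearson r of 0.144 and a Spearman rho of 0.122 across genes, against a rho of -0.04 over all genes, as descriptions. An unadjusted p under 0.05 in both tables was reached by 4 members, against 0.853% of all genes. Kcnk4 and Kcnj11 were lower in EE in both sexes, and 0.427% of all genes had the same direction. Kcnh7 and Kcnip4 were lower in EE females and higher in EE males, and 0.427% of all genes had opposite directions. The female minus male differences of the first pair in an interaction term were -0.14 (adjusted p = 0.832) for Kcnk4 and 0.04 (adjusted p = 0.975) for Kcnj11.

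No member's housing difference itself differed between the sexes at an adjusted p under 0.05. In the interaction fit of all RNA libraries, edgeR called 0 of 70 members, against 0.00643% of 15562 genes, DESeq2 called 1 (Kcnh7), against 0.585% of all genes, and limma-voom called 0. Of the 15562 genes, 11163 had no adjusted p in DESeq2 and count in its share as not called. An unadjusted p under 0.05 was reached by 14 (20%, against 8.98% of all genes), 8 with a higher EE over SH change in females and 6 with a lower one, against 4.4% and 4.58% of all genes. Kcnj5, kept through its female EE libraries alone, is counted in the 14 and the 8. The smallest p was that of Kcnj4 (female minus male log2 0.37 ± 0.10, adjusted p = 0.176, and 0.0375 without female SH replicate 6). That was the only 1 of 24 omissions with a value under 0.05, and the highest was 0.284.

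The next members by interaction p came from several roles. Kcnj5, which was kept through its female EE libraries alone, had a female minus male log2 of 1.73, a direction that its selection fixes and that is given as a description. Kcnj2 had one of 0.53 ± 0.16 (adjusted p = 0.234). Kcnh7 (-0.24 ± 0.07, adjusted p = 0.256), Kcnip4 (-0.25 ± 0.08, adjusted p = 0.275), Kcnc2 (-0.23 ± 0.07, adjusted p = 0.284) and Kcnq5 (-0.22 ± 0.08, adjusted p = 0.332) had lower values in females. Kcnip2 was at 0.34 ± 0.11 (adjusted p = 0.307). In DESeq2 the adjusted p of Kcnh7 was 0.0488.

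**Figure D4:**
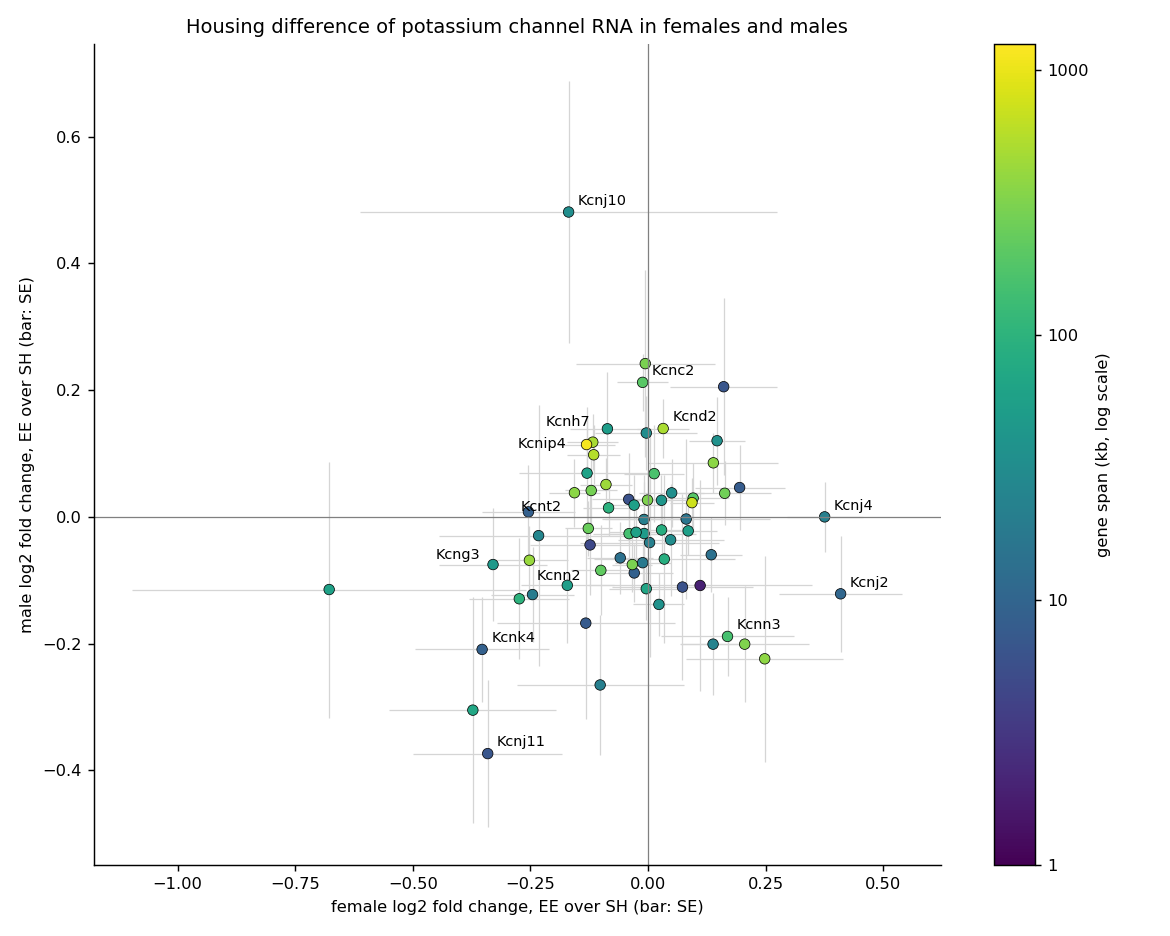
Female against male log2 fold change, EE over SH, of the 68 genes kept in both sexes, with SE bars; colour is the gene's span in kb on a log scale. Kcnk4 and Kcnj11 lie at the lower left, Kcnj4 and Kcnj2 at the right with male values of 0.00 and -0.12, and Kcnc2 near 0 in females and at 0.21 in males.

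Gene length moved with the male values, with a Spearman rho between span and log2 change of 0.308 over 68 genes in males and -0.01 over 70 genes in females, against 0.146 and -0.18 over all genes tested, as descriptions across genes. Among genes of 300 kb or more, 5 of 13 members lay above 0 in females and 9 of 13 in males, and among genes under 20 kb, 7 of 18 did in females and 4 of 17 in males. The median log2 change of all genes tested was -0.03 in females and 0.04 in males at 300 kb or more, and 0.04 and -0.04 under 20 kb. Kcnh7, Kcnip4 and Kcnq5, with spans of 491, 1135 and 564 kb, are in the longest group, whereas Kcnk4 and Kcnj11 span 8.81 and 6.81 kb. The part of length in the members' values was not tested.

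Some members overlap other genes, and the strand used in counting is not given in the sources used here. Kcnq1 shares 26.3% of its span with the antisense RNA gene Kcnq1ot1, which had 586 CPM in females and 486 CPM in males against 9.91 and 14.3 CPM for Kcnq1. Kcna3 lies wholly within the antisense gene Gm27008, and Kcna6 shares 68.0% of its span with the antisense gene Gm26673. Values of Kcnq1, Kcna3 and Kcna6 are therefore uncertain.

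Genes outside the symbol rule that work with these channels were read beside them. Of 24 listed partners 21 were tested in each sex, and edgeR called 0 in either, while DESeq2 called Kctd16 in males (adjusted p = 0.0281). In females 12 of 21 lay above 0 (median 0.02), against 50.6% of all genes. An unadjusted p under 0.05 was reached by 5, against 8.67% of all genes. Among them were Dpp10, which encodes a Kv4 auxiliary protein (-0.12 ± 0.05, adjusted p = 0.475), and Adam23, a receptor of LGI1 (0.12 ± 0.05, adjusted p = 0.475). Lrrc38, an auxiliary protein of calcium-activated channels, was at 0.67 ± 0.28 (adjusted p = 0.505). Its means were only 1.51 CPM in EE and 0.938 CPM in SH, and in males it was at -0.15. The others were the pacemaker channel genes Hcn2 (0.16 ± 0.08, adjusted p = 0.573) and Hcn4 (0.39 ± 0.18, adjusted p = 0.559, or 0.59 on the log2 scale without SH replicate 6).

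In males 17 of 21 partners lay above 0 (median 0.04), against 47.9% of all genes. An unadjusted p under 0.05 was reached by 4, against 8.03% of all genes. The part of gene length in these counts was not tested. Kctd16, an auxiliary protein of the GABA-B receptors that open G protein-gated potassium channels, had 1699 ± 71.9 CPM in EE and 1503 ± 91.2 CPM in SH (SD, n = 6 each; log2 0.17 ± 0.05, adjusted p = 0.267). The axonal adhesion gene Cntn2 was at 0.16 ± 0.06 (adjusted p = 0.483, or a log2 of 0.10 without EE replicate 4) and the scaffold gene Dlg2 at 0.09 ± 0.04 (adjusted p = 0.608). Hcn4 had the opposite direction to females, at -0.52 ± 0.17 (adjusted p = 0.394). Female Kctd16 was at -0.09 (adjusted p = 0.662).

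In female open chromatin, 1 region of the potassium channel genes rose in EE, inside Kcnt2. It lies at chr1:140338195-140339929 (mm10), 92.9 kb from the start of the gene. Its levels were 18.1, 22.0 and 22.8 CPM in the EE libraries, against 16.2, 14.1 and 11.5 CPM in the SH libraries, so the groups did not overlap. The log2 fold change was 0.59 ± 0.13 (adjusted p = 0.0395, edgeR). Adjusted p was 0.0610 in limma-voom. When a library was left out it was 0.227 (EE replicate 2), 0.236 (EE replicate 3), 0.149 (SH replicate 2) or 0.391 (SH replicate 3). The overlapping male region held 20.2 ± 2.08 CPM in EE (SD, n = 6) and 21.5 ± 2.42 CPM in SH (SD, n = 7), a log2 fold change of -0.08 ± 0.08 (adjusted p close to 1), and the difference between the sexes was not tested.

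The called region was 1 of 1435, against 0.0473% of 164926 regions tested. An unadjusted p under 0.05 was reached by 104 regions (7.25%, against 8.01% of all regions), 52 higher and 52 lower in EE, against 4.53% and 3.48% of all regions. Of the members 685 (47.7%) lay above 0, against 48.3% of all regions and 44.8% of regions inside all genes away from their starts. Groups did not overlap in 197 (13.7%), against 12.8% of all regions. These shares lay near those of all regions.

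Most regions of Kcnt2 lay above 0 in females. Of 35 regions 28 lay above 0 (median 0.20), against 48.3% of all regions. An unadjusted p under 0.05 was reached by 5, against 8.01% of all regions. All 5 were higher in EE, at 92.9, 129.8, 151.6, 210.9 and 245.9 kb from the start. Kcnt2 was not alone in this. Kcnh7 had 50 of 61 regions above 0, with 9 at that p, and Kcnj3 had 21 of 25, with 4, while Kcnma1 had 78 of 197. In males 28 of 86 Kcnt2 regions lay above 0 (median -0.04), against 49.7% of all male regions. There 0 had an unadjusted p under 0.05, against 4.54% of all male regions. The start region of Kcnt2 was at 0.07 ± 0.12 in females. Kcnt2 RNA was lower in EE females (log2 -0.16) and at 0.04 in males.

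**Figure D5:**
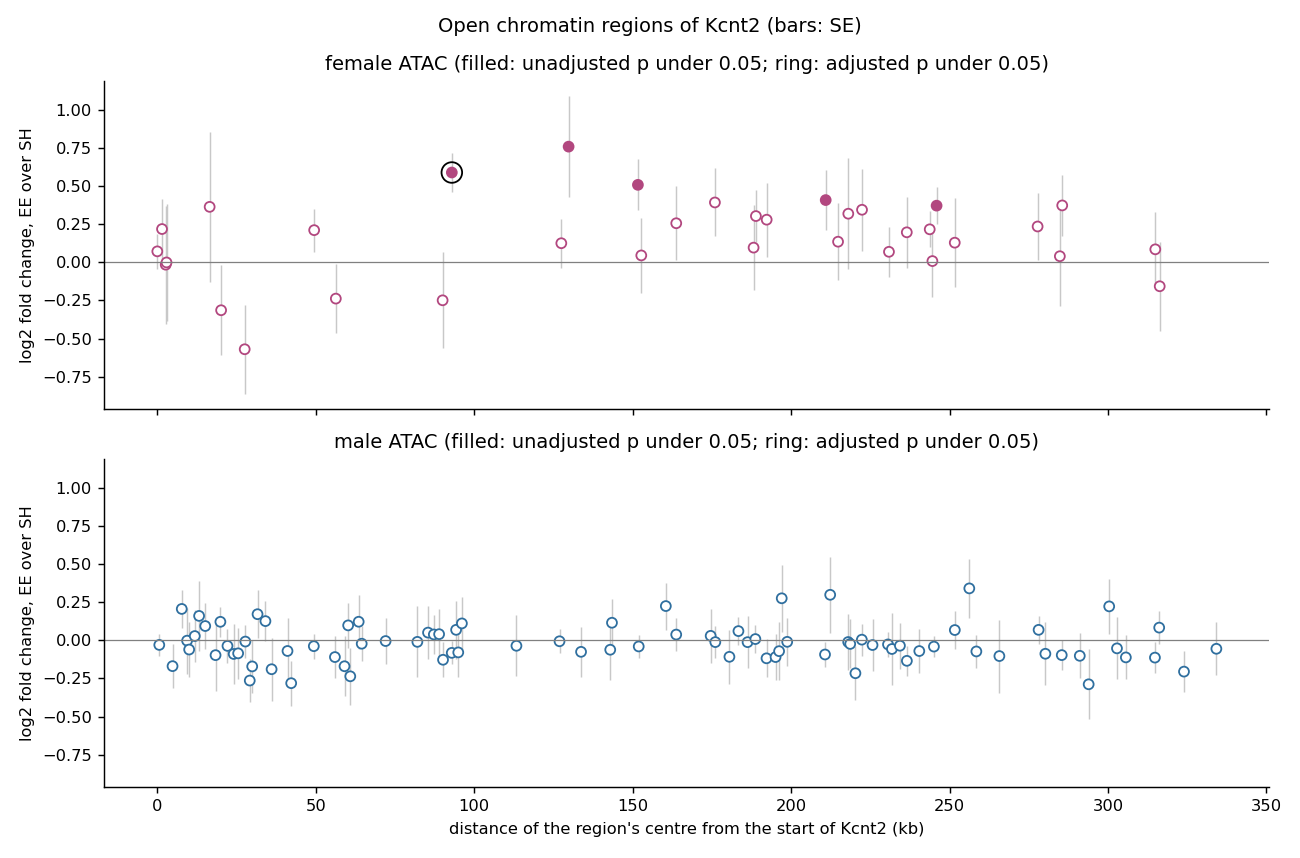
Log2 fold change, EE over SH, of each open chromatin region of Kcnt2 against its distance from the gene's start (kb), with SE bars, for females (35 regions) and males (86 regions); filled points have an unadjusted p under 0.05 and the ring marks the region with an adjusted p under 0.05. Between 92.9 and 245.9 kb the 5 filled female points lie above 0, and no male point is filled.

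Other female regions with small p lay inside long genes. A region of Kcnj3, which encodes the GIRK1 subunit, at chr2:55534630-55536211 had 13.1, 19.2 and 16.8 CPM in EE, against 12.6, 10.7 and 9.51 CPM in SH (log2 0.58 ± 0.14, adjusted p = 0.0796). Another one, at chr2:55505398-55506113, had 8.68, 9.41 and 10.6 CPM in EE, against 7.25, 6.30 and 4.14 CPM in SH (log2 0.70 ± 0.17, adjusted p = 0.0912). The groups did not overlap at either, and 21 of 25 Kcnj3 regions lay above 0. Without SH replicate 1 the adjusted p values were 0.0239 and 0.0226, and without EE replicate 1 the first was 0.0115. Over the 6 omissions of 1 library they reached 0.581 and 0.605, and 2 and 1 of the 6 gave a value under 0.05. Calls over all regions were 333 without SH replicate 1, against 78 with all libraries. The overlapping male regions were at -0.07 ± 0.08 and -0.14 ± 0.10.

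A region of Kcnip1, which encodes KChIP1, at chr11:33932169-33933288 had 9.06, 12.7 and 10.9 CPM in EE, against 8.80, 6.57 and 5.19 CPM in SH (log2 0.66 ± 0.17, adjusted p = 0.104). Leaving out SH replicate 1 gave an adjusted p of 0.0118 and leaving out EE replicate 1 gave 0.0369, while the highest of the 6 omissions was 0.582. The overlapping male region was at -0.30 ± 0.10 (adjusted p close to 1). Kcnma1, which encodes the BK channel, held 3 regions that were lower in EE, at -1.04 ± 0.25, -0.76 ± 0.23 and -0.48 ± 0.13, with adjusted p values of 0.0807, 0.235 and 0.125. The first of them is small, with 1.75 ± 0.310 CPM in EE and 3.60 ± 0.388 CPM in SH (SD, n = 3 each). Of the 197 Kcnma1 regions 78 lay above 0.

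By class, EAG, ERG and ELK genes had the largest share of female regions above 0, 128 of 209 (61.2%, median 0.11), with 50 of 61 at Kcnh7. Of female regions inside all genes away from their starts, 44.8% lay above 0. Kcnq5 had 52 of 68 and Kcnip4 49 of 73 above 0. Silent modifiers had the smallest share, 9 of 31 (29.0%). RNA of Kcnh7, Kcnq5 and Kcnip4 was at -0.12, -0.12 and -0.13 in the same females. Across the 48 genes with 5 or more regions, the median region change and the RNA change had a Spearman rho of -0.11, a description across genes.

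With TMM scaling, start-site regions lay mostly below 0, in members and in all genes tested. In females 29 of 89 start-site regions of 59 members lay above 0 (32.6%), against 29.9% of 15802 start-site regions of all genes tested. Those with an unadjusted p under 0.05 were all lower in EE and belonged to Kcnd3 (Kv4.3), Kcnn3, Kcnh4 and Kcnh2. They were 4 of 89 (4.49%), close to the share of all start-site regions, of which 4.69% reached that p, 0.728% higher and 3.96% lower in EE. The Kcnd3 region at chr3:105450006-105451964 had 13.8, 14.2 and 15.4 CPM in EE, against 20.8, 19.2 and 19.5 CPM in SH (log2 -0.46 ± 0.12, adjusted p = 0.145), with no overlap. The male region over it was at 0.00 ± 0.06. Kcnn3 was at -0.32 ± 0.12, Kcnh4 at -0.39 ± 0.16 and Kcnh2 at -0.25 ± 0.12, or -0.12 without SH replicate 2. The nearest RefSeq start read for Kcnh2 lay 22013 bases from the start used here.

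In male open chromatin, no region of a potassium channel gene passed the adjusted threshold. With edgeR, DESeq2 and limma-voom 0 of 1756 were called, against 0% of 192834 regions in edgeR. An unadjusted p under 0.05 was reached by 67 (3.82%, against 4.54% of all regions), 24 higher and 43 lower in EE, against 2.62% and 1.92% of all regions. Of the members 716 (40.8%) lay above 0, against 49.7% of all regions and 48.0% of regions inside all genes away from their starts. Groups did not overlap in 2 regions (0.114%), against 0.123% of all regions.

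Of the 11 classes, calcium- and sodium-activated channel genes had the smallest share of male regions above 0, 129 of 420 (30.7%, against 49.7% of all regions). An unadjusted p under 0.05 was reached by 17 of the 420, against 4.54% of all regions. Of the 17, 16 were lower in EE, as were 1.92% of all regions at that p, and 11 belonged to Kcnma1. Kcnma1 had 67 of 232 regions above 0, Kcnt2 28 of 86 and Kcnn2 15 of 65. A Kcnma1 region 449 kb from the start had 0.990 ± 0.0978 CPM in EE and 1.47 ± 0.264 CPM in SH (log2 -0.58 ± 0.16), and a Kcnn2 region 295 kb from the start had 4.68 ± 0.339 CPM in EE and 5.91 ± 0.694 CPM in SH (log2 -0.34 ± 0.10). Adjusted p was close to 1 for both.

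The smallest male p was that of a Kcns3 region, in a gene of a silent modifier, at chr12:11132492-11133109. It had 2.25, 3.195 and 3.54 CPM (lowest, median and highest) in EE, against 1.34, 1.88 and 2.71 CPM in SH (log2 0.67 ± 0.15, adjusted p = 0.800). Kcnj3 held regions in both directions, at -0.28 ± 0.08 (chr2:55478468-55482313) and 0.42 ± 0.13 (chr2:55560409-55561624). Regions of Kcnmb2 (-0.34 ± 0.10), Kcnip4 (0.41 ± 0.13) and Kcnh7 (0.40 ± 0.13) completed the 8 with the smallest p in either direction. At start sites 24 of 72 lay above 0 (33.3%, against 28.9% of 12567 start-site regions of all genes). An unadjusted p under 0.05 was reached by 5 (6.94%, against 2.34%), at Kcnip4 (-0.14), Kcnn1 (-0.20), Kcnq3 (-0.13) and Kcns2 (-0.11), lower in EE, and at Kcnj5 (0.41, or 0.27 without EE replicate 1), higher in EE. For Kcnip4 the nearest RefSeq start read lay 239248 bases from the start used here.

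The number of regions followed gene length, with a Spearman rho of 0.749 over 67 genes in females and 0.885 over 70 genes in males. The SH level of the start-site region went with the SH level of RNA per kb at a rho of 0.447 over 59 genes in females and 0.515 over 62 genes in males. Housing changes of the start-site region and of RNA had a rho of -0.21 in females and 0.26 in males. These are descriptions across genes that share libraries. No start-site region was found in either sex at Kcnh6, Kcnj16, Kcnk2, Kcnma1, Kcnq1 and Kcnu1, among others. The nearest RefSeq start read for Kcnma1 lay 10286 bases from the start used here, outside the 1 kb window. Open chromatin at that RefSeq start was therefore not looked at as a start site.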

How the data were processed

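Members and gene lists were chosen with earlier results of these data known. The tables deposited by the authors hold raw read counts per gene over introns and exons and raw counts per ATAC region, with no normalization. Per the submitters' processing notes, the build was mm10 and the tools included MACS2 2.1.1, DiffBind 3.2.2, edgeR, bedtools, STAR 2.5.4, SAMtools 1.3.1 and DESeq2 1.16.1. The read counter, the strand of counting, the merging of regions and whether region starts count from 0 or 1 are all not given in the sources used here, so region coordinates are copied unchanged. In the male RNA table the header lacks 1 name, and columns were read by position. A deposited length column served no test.

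Each table was fitted on its own and whole in edgeR 4.0.16 (R 4.3.3) by the robust quasi-likelihood F test for housing, after filterByExpr and TMM scaling. P-values were adjusted by Benjamini-Hochberg over all features tested, and a feature was called at an adjusted p under 0.05. The interaction of sex and housing was fitted over both RNA tables. Levels are TMM-scaled CPM with SD, and SEs of log2 fold changes were taken as the absolute change over the root of F. Named are members with an unadjusted p under 0.05, at most 12 per direction and table, the 8 smallest interaction p-values, the 10 highest levels per kb, the leading gene of each class, and called regions or, where under 4 were called, the 4 smallest p-values per direction and ATAC table. Some genes that this rule names are not reported here. Genes of a class that reached p-values above these are given as counts. DESeq2 1.42.0, limma 3.58.1 (limma-voom), other scalings and filters, a replicate block and leaving out each library were tried as alternatives. The scripts were tested on simulated data. Other steps used Python 3.11.15, pandas 2.3.3, SciPy 1.17.1 and matplotlib 3.10.9.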

Additional observations from a re-analysis of the deposited data

Results flagged for a closer look

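In 8 of the 90 groups of libraries looked at, a library lay far from the others of its group, where chance alone gives about 1 in 20. For Kcnj4 in females, EE replicate 3 had 40.2 CPM, against 32.8 to 35.1 CPM in the other EE libraries, and SH replicate 6 had 33.8 CPM, against 23.5 to 26.9 CPM in the other SH libraries. Kcnj6 had 515 CPM in female SH replicate 2, against 588 to 608 CPM in the others. Male EE replicate 3 had 363 CPM of Kcnc2, against 309 to 324 CPM in the others, and 8.79 CPM of Kcnk4, against 10.2 to 11.0 CPM. Kcnip4 had 11804 CPM in male SH replicate 5, against 10088 to 10713 CPM in the others. Kcnq5 had 2924 CPM in male EE replicate 1, against 2548 to 2601 CPM in the others. In male ATAC, the Kcnj3 region at chr2:55560409-55561624 had 3.03 CPM in SH replicate 4, against 1.72 to 2.21 CPM in the others.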

How the results depend on the processing

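Of 1397 values recomputed for 72 named genes, regions and interactions, 1371 kept their direction and their side of the threshold, 20 gained and 6 lost an adjusted p under 0.05, and 0 reversed. With no low-count filter 2 members were called in female RNA (Kcnj4 and Kcnn2), 2 in male RNA (Kcnc2 and Kcnd2) and 2 in the interaction (Kcnh7 and Kcnip4), against 0 in each with the filter; over all genes these fits called 168 of 33545, 136 of 36188 and 92 of 37737. DESeq2 called 1 in each. Leaving out 1 library gave 0 to 1 calls in female RNA, 0 to 1 in the interaction and 0 to 4 in female ATAC, and without SH replicate 1 or EE replicate 1 of female ATAC there were 4 and 3, while the calls over all regions were 333 and 166, against 78 with all libraries. Female ATAC had 0 calls in limma-voom, against 1 in edgeR. Scaling by total counts moved the male RNA median to -0.053. The cause was not tested. What the replicate numbers mark is not stated in the labels, so whether same-numbered libraries form pairs cannot be told. Deviations of same-numbered EE and SH libraries had correlations from 0.04 to 0.31 in female RNA and from -0.03 to 0.23 in male RNA. In ATAC they ran from -0.07 to 0.07 in females and from -0.10 to 0.17 in males. Among differently numbered female RNA libraries they ran from -0.28 to 0.34. The column names of female RNA carry the same set of numbers in EE and SH. The main fits took no pairing into account. With a replicate block there was 1 call in female RNA (Kcnj4, adjusted p = 0.0482), and 95 of all genes were called, against 0 without the block. In female ATAC the block left 0 member calls (adjusted p = 0.134 for the Kcnt2 region). With 3 female ATAC libraries a group and at most 26.3 M counts in each, regions with few counts had wide errors.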
